A study of Mus musculus with 16 samples.

Results

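SINEs (short interspersed elements) are short retrotransposons, and the deposited count tables give 1 row to each repeat name, summed over all annotated copies of that name in the mouse genome. The rows described here are the 34 of 1201 repeat rows whose names start with B1, B2_, B3, B4, PB1, ID, RSINE, MIR or AmnSINE. They comprise 15 B1 and PB1 rows, 7 rows of B2, B3 and B4, 5 ID rows, RSINE1, 4 MIR rows and 2 AmnSINE rows. The rule reads names alone and no measured value, and all 34 rows passed the filter on low counts that 1024 repeat rows passed.

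The libraries come from LSK cells (Lineage- Sca1+ Kit+), the bone marrow fraction that holds blood stem cells and early progenitors. The groups were 5 libraries of R882H cells under azacitidine, 4 of R882H cells under NaCl, 3 of WT cells under azacitidine and 4 of WT cells under NaCl. R882H cells are labelled as expressing mouse WT DNMT3A together with human DNMT3A carrying the R882H mutation, which was knocked into the mouse locus behind a stop cassette that Mx1-Cre removes. Mx1-Cre is an interferon-driven recombinase and is not specific to blood stem cells. WT cells are labelled as having mouse WT DNMT3A alone. The protocol gives the control donors as lacking Mx1-Cre and does not say whether they carry the silent cassette, and the knock-in was made in C57BL/6N cells. In all 4 groups the donor mice had received poly(I:C), the inducer of Mx1-Cre, and their marrow was mixed with an equal amount of CD45.1 wild-type marrow before transplantation. Recipients received azacitidine at 2.5 mg/kg or 0.9% NaCl for 2 weeks, with 5 days on, 2 days off and 5 days on. The labels give no age, and whether the sorted LSK cells were gated for donor origin is not stated in the sources used here. Nothing in the labels says that libraries of a group came from separate mice, so the p-values below measure the spread between these libraries, which may be technical.

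SINEs encode no protein and depend on the machinery of LINE-1 elements for their spread. An intact copy carries its own RNA polymerase III promoter with an A box and a B box, but most copies lie within or beside genes and are also read as part of longer RNA polymerase II transcripts. In somatic tissue SINE promoters are held silent largely by DNA methylation and by methylated histone H3 lysine 9. DNMT3A is a de novo DNA methyltransferase, R882H impairs it, and azacitidine is a cytosine analogue that depletes DNA methyltransferases, and the comparisons below ask whether SINE RNA differed with the drug, the mutation or both. A count in a SINE row says that a read overlapped an annotated copy, and it does not separate a transcript from the SINE's own promoter from a copy inside a longer RNA.

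The sequence shown here is that of BC1 RNA, because it gives the ID class its origin. ID descends from BC1 RNA, a short neuronal RNA that itself comes from a tRNA, while B1 descends from 7SL RNA, the RNA of the signal recognition particle. Bc1 encodes BC1 RNA on the plus strand at chr7:144914470-144914637 (GRCm38, GENCODE annotation, a non-coding gene shown whole, 168 bases). Capitals mark GTTCGG, the form that the core of the B box takes in this RNA, which a search on both strands found at bases 58 to 63, counted from the 5′ end.
Bc1: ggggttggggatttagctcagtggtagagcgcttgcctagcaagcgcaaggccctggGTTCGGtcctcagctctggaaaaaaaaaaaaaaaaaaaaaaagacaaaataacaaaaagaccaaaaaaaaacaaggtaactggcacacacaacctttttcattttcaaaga
Of 32851 mouse promoter windows of 300 bases, 4.76% hold GTTCGG on either strand, so the match describes this sequence and shows no binding.

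The libraries held 35860445 to 56012766 counts, of which SINE rows took 590899 to 1575482, or 1.41% to 3.50%. SINEs made up 34.7% to 50.6% of the counts in repeat rows. The LSK marker list (8 genes, Kit, Ly6a and Cd34 among them) was detected in full in every library, with a summed level of 2440.1 to 3343 CPM in R882H azacitidine libraries, 1292 to 3912 in R882H NaCl libraries, 1995 to 2721 in WT azacitidine libraries and 2404 to 3779 in WT NaCl libraries. Erythroid markers (7 genes) summed to 246 to 451 CPM in R882H azacitidine libraries, 155 to 4833 in R882H NaCl libraries, with 4833 in library 2 and 1621 in library 1, 257 to 348 in WT azacitidine libraries and 301 to 653 in WT NaCl libraries. None of the 7 was at 0 in any library. Car1 gave most of these 2 high sums, at 3958 CPM in R882H NaCl library 2 and 994 in library 1. Klf1 stood at 702 and 220 CPM there, and Hba-a1, the highest globin gene, at 74.3 and 214. Plasma cell markers (4 genes) summed to 1154 to 2368 CPM in R882H azacitidine libraries, 234 to 2343 in R882H NaCl libraries, 289 to 1970 in WT azacitidine libraries and 593 to 3033 in WT NaCl libraries. Lists of 6 genes each for B cells, macrophages, and stroma and endothelium summed to at most 149 CPM in any library. The part of these cells in the SINE values was not tested. After TMM scaling, Dnmt3a averaged 96.6 ± 4.73 CPM in R882H cells under azacitidine, 90.3 ± 19.3 in R882H cells under NaCl, 104 ± 33.8 in WT cells under azacitidine and 96.8 ± 10.1 in WT cells under NaCl (SD, n = 5, 4, 3 and 4). This row does not tell the human R882H allele from the mouse gene, so it is no check of the genotype.

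Levels below are in CPM, counts of a row scaled in the usual way by the total of the gene counts of the same library, so that repeat rows do not enter the total. B2 to B4 rows made up 40.9% of the mean SINE level, B1 rows 37.3%, ID rows 9.32%, RSINE1 6.55%, MIR rows 5.82% and AmnSINE rows 0.0609%. The highest row of each class was B1_Mus1 in B1 (mean 1386 CPM over 16 libraries), B3 in B2 to B4 (2129), ID_B1 in ID (1401), MIRb in MIR (451) and AmnSINE1 in AmnSINE (11.5). B1_Mus1, B1_Mus2 and B1_Mm are the young mouse B1 subfamilies, while PB1 rows are their older monomers and MIR and AmnSINE are relics that are shared across mammals or amniotes. AmnSINE2 was the sparsest row, with 30 to 185 counts per library, so its values carry the widest counting error of the 34.

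Per megabase of annotated copies the order changed. B2_Mm1a, a young B2 subfamily, had 438.5 CPM per Mb on average (range 253 to 639 over 16 libraries), and its close relative B2_Mm1t had 260.0 (163 to 372). PB1D9 followed at 186 (126 to 346), and the ranges of neighbours in this order overlapped. Within each library, however, B2_Mm1a stood above B2_Mm1t. B2_Mm1t stood above PB1D9 except in WT azacitidine library 1 (303 against 346) and R882H NaCl library 4 (163 against 174). B4 and AmnSINE2 were lowest, at 52.2 (33.1 to 105) and 52.3 (19.8 to 132). Except for both B2_Mm1 rows, the 34 rows lay within 52.2 and 186 on this scale. Over whole classes the mean was 121.6 per Mb for B1, 107.8 for ID and 99.8 for B2 to B4. It was 99.6 for RSINE1, 88.5 for MIR and 84.3 for AmnSINE. The libraries' own spread was wider than these steps but was largely shared by the rows. MIR rows had 0.131 to 0.175 counts per B1 count, for 14.3 Mb of MIR and 66.9 Mb of B1 copies. Per Mb, MIR therefore lay below B1 in every library. Class means lay between 84.3 and 121.6 per Mb, while both B2_Mm1 rows stood higher.

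**Figure D1:**
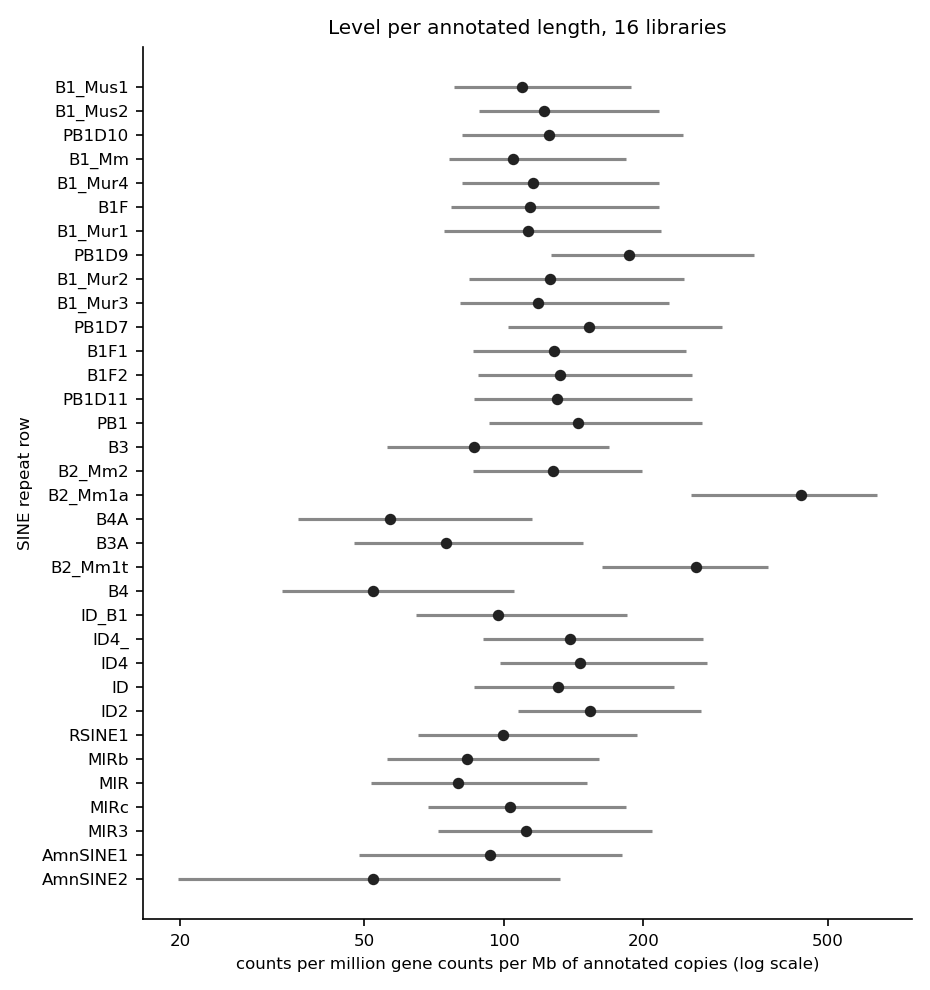
Level of each of the 34 SINE rows per length of its annotated copies (CPM per Mb, log axis). Points are means and lines the lowest to highest of the 16 libraries; B2_Mm1a (438.5) and B2_Mm1t (260.0) lie to the right of the other rows, and B4 and AmnSINE2 to the left.

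B1 rows, the 7SL-derived class, showed no separation of the groups. Summed over 15 rows, the level was 6696, 8139.7, 8199, 7763 and 7031 CPM in R882H azacitidine libraries and 11233, 6319.7, 7169 and 7716 in R882H NaCl libraries. It was 15059, 5796 and 9783 CPM in WT azacitidine libraries, against 6409.9, 9187, 5627 and 8075 in WT NaCl libraries. Single libraries stood high, R882H NaCl library 1 and WT azacitidine library 1, and all 4 groups overlapped. In R882H cells the mean was 7566 ± 673 under azacitidine and 8109 ± 2160.1 under NaCl (SD, n = 5 and 4), a log2 ratio of -0.10. In WT cells the mean was 10213 ± 4646 under azacitidine and 7325 ± 1607 under NaCl (SD, n = 3 and 4), a log2 ratio of 0.48. The pooled SD of library values within groups was 0.38 on the same scale. With WT azacitidine library 1 left out, the WT log2 ratio was 0.09.

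B2 to B4 rows, a class that holds the tRNA-derived B2 and B3 families and the composite B4 family, had sums of 7152, 9773, 9330.1, 8096 and 7284 CPM in R882H azacitidine libraries. R882H NaCl libraries had 12605, 7581, 7142 and 7514. WT azacitidine libraries had 14831, 7988 and 11465, against 7083, 10856, 5785 and 8383 in WT NaCl libraries. The groups overlapped here too, and library 1 was again the highest of its group in R882H NaCl and in WT azacitidine. The mean in R882H cells was 8327 ± 1185 under azacitidine and 8710.4 ± 2603 under NaCl, a log2 ratio of -0.06. In WT cells it was 11428 ± 3422 under azacitidine and 8027 ± 2164 under NaCl, a log2 ratio of 0.51, with a pooled SD of 0.35. Without WT azacitidine library 1 this ratio was 0.28.

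MIR rows, the ancient tRNA-derived elements, had sums of 1092, 1231, 1432, 1296 and 1106 CPM in R882H azacitidine libraries and 1472, 913, 1138 and 1322 in R882H NaCl libraries. In WT azacitidine libraries the sums were 2386, 856 and 1561, against 988, 1397, 837 and 1297 in WT NaCl libraries. WT azacitidine holds both a high and a low library, and its range covers the whole range of WT NaCl apart from library 3 at 837. The mean was 1231 ± 141 under azacitidine and 1211 ± 241 under NaCl in R882H cells, a log2 ratio of 0.02. It was 1601 ± 766 under azacitidine and 1129.8 ± 262 under NaCl in WT cells, a log2 ratio of 0.50, with a pooled SD of 0.39. Without WT azacitidine library 1 the WT ratio was 0.10.

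**Figure D2:**
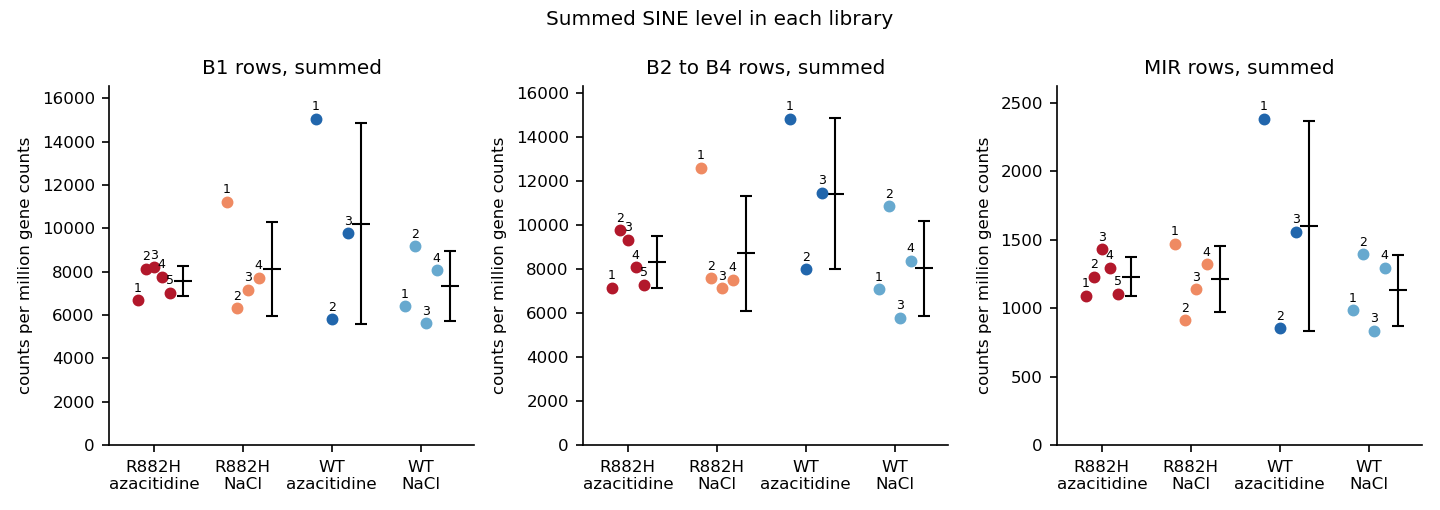
Summed level of the B1, B2 to B4 and MIR rows in each library (CPM, axes from 0). Points are libraries with their replicate number, bars the mean and SD of a group; WT azacitidine library 1 is the highest point in each panel (15059, 14831 and 2386 CPM) and the groups overlap in each.

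The 3 class sums also had the same order between genotypes. Under azacitidine the R882H to WT log2 ratio of means was -0.43 for B1, -0.46 for B2 to B4 and -0.38 for MIR, and under NaCl it was 0.15, 0.12 and 0.10 for the same classes. Without R882H NaCl library 1 the ratios under NaCl were -0.05 for B1, -0.11 for B2 to B4 and -0.0070 for MIR, and azacitidine against NaCl in R882H was 0.10 for B1, 0.17 for B2 to B4 and 0.13 for MIR. The azacitidine response in R882H minus that in WT was -0.58 for B1, -0.57 for B2 to B4 and -0.48 for MIR. Averaged over both genotypes, the azacitidine ratio was 0.19, 0.22 and 0.26. No test is given for these sums, since the rows were chosen with earlier results of these data known, and comparisons that share a group share its libraries. In bulk RNA, more cells with much SINE RNA and more SINE RNA per cell cannot be told apart.

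Row by row, the change was tested with edgeR's quasi-likelihood test over all 1024 repeat rows, with the gene count total as library size and Benjamini-Hochberg adjustment. A row was called at an adjusted p under 0.05. In azacitidine against NaCl in R882H cells, 0 of 34 SINE rows were called, where 0% of the repeat rows tested were. At an unadjusted p under 0.05 the SINE count was 0 with edgeR, beside 1.17% of all repeat rows. DESeq2 also called 0 SINE rows and had 0 at that unadjusted level, beside 0.999% of repeat rows. The median log2 change of the SINE rows was -0.06, with a range of -0.17 (B1_Mm) to 0.27 (AmnSINE2), beside -0.13 over the other repeat rows. Of the 34, 6 had a value above 0, namely MIRb, MIRc, MIR3, B2_Mm1a, B2_Mm1t and AmnSINE2, which were named after their values were seen. This sign rested on R882H NaCl library 1, for without it the median was 0.10 and 33 rows had a value above 0.

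In WT cells, azacitidine against NaCl gave positive values for all 34 SINE rows, and 0 were called, beside 0.293% of the repeat rows tested. The edgeR median log2 change was 0.50, with a range of 0.39 (ID2) to 0.90 (AmnSINE2), and the other repeat rows had a median of 0.57 with 96.8% of them above 0. A positive sign was therefore general among repeat rows and not particular to SINEs. At an unadjusted p under 0.05 the count was 1 of 34 with edgeR, where 14.7% of all repeat rows passed, and 2 of 34 with DESeq2, where 18.1% passed, and DESeq2 called 0. Both the size and the call turned on WT azacitidine libraries 1 and 2. Without library 1 the median was 0.09 and 0 rows were called. Without library 2 the median was 0.81 and 31 of 34 SINE rows were called higher, all but B2_Mm1a, B2_Mm1t and B2_Mm2, where 55.5% of all repeat rows tested were called.

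AmnSINE2, an ancient family present in few copies, had the lowest p of the SINE rows in WT cells. Its level was 4.57, 0.931 and 2.52 CPM in WT azacitidine libraries, against 0.685, 2.47, 0.838 and 1.73 in WT NaCl libraries. WT azacitidine libraries 1 and 3 stood above all WT NaCl libraries, library 3 only narrowly (2.52 against 2.47 CPM). Library 2 of WT azacitidine lay within the range of the WT NaCl libraries. The log2 change was 0.90 ± 0.43 (SE, edgeR quasi-likelihood test, adjusted p = 0.275). In R882H cells AmnSINE2 was at 1.31, 1.77, 2.06, 2.13 and 1.84 CPM under azacitidine and at 1.86, 0.859, 1.55 and 1.77 under NaCl, with a log2 change of 0.27 ± 0.39 and an adjusted p of 0.991 from edgeR. AmnSINE1 had the next change in size in WT cells, 0.62 ± 0.35 (adjusted p = 0.275, edgeR).

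B3 is the most abundant SINE row. It had 1688, 2089, 2136, 2034 and 1774 CPM in R882H azacitidine libraries and 3001, 1685, 1803 and 2027 in R882H NaCl libraries. It had 4166, 1428 and 2593 in WT azacitidine libraries and 1679, 2461, 1380.2 and 2113 in WT NaCl libraries. The lowest value under azacitidine in WT cells lay near the lowest under NaCl, while the highest was far above any other library. The edgeR log2 change was 0.52 ± 0.32 in WT cells (adjusted p = 0.279) and -0.13 ± 0.28 in R882H cells (adjusted p = 0.991). B1_Mus1, the most abundant B1 row, had 1138, 1455, 1390.3, 1283 and 1195 CPM in R882H azacitidine libraries, 1988, 1070.1, 1248 and 1299 in R882H NaCl libraries, 2386, 1016 and 1660.4 in WT azacitidine libraries and 1105, 1579, 990.1 and 1374 in WT NaCl libraries. It followed the same libraries as B3, and its log2 change was 0.42 ± 0.32 in WT cells (adjusted p = 0.315, edgeR). MIRb, the most abundant MIR row, had 392, 426, 499, 457 and 398 CPM in R882H azacitidine libraries, 510.2, 326, 408 and 474 in R882H NaCl libraries, 866, 305 and 541 in WT azacitidine libraries and 357, 500.3, 302 and 460.5 in WT NaCl libraries. In R882H NaCl its libraries lay closer together than those of B1_Mus1 and B3, and WT azacitidine library 1 was again the highest of all. The WT log2 change of MIRb was 0.49 ± 0.32 (adjusted p = 0.281, edgeR).

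The difference between the azacitidine responses, R882H minus WT, was below 0 for all 34 SINE rows, with a median log2 value of -0.57, beside -0.69 over the other repeat rows. None of the 34 was called (edgeR, lowest adjusted p = 0.354, beside 0.195% of repeat rows called), and without adjustment 0 of 34 passed 0.05 in edgeR and in DESeq2, where 12.4% and 13.1% of all repeat rows did. AmnSINE1 had the most negative value, -0.75 ± 0.47, and MIRc the least, -0.40 ± 0.43. Without R882H NaCl library 1 and WT azacitidine library 1 together, the median was 0.01 (21 rows above 0 and 13 below).

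R882H against WT under NaCl gave values above 0 for 34 rows, a median log2 change of 0.15 beside 0.18 over the other repeat rows, and 0 calls (edgeR, with 0% of repeat rows called; 0 of 34 SINE rows passed 0.05 without adjustment, beside 1.66% of repeat rows, and DESeq2 gave 0 by either criterion, beside 2% without adjustment). AmnSINE1 had the largest change, 0.31 ± 0.33 (SE, adjusted p = 0.989, edgeR), and B2_Mm1t the smallest, 0.04 ± 0.30. Without R882H NaCl library 1 the median was -0.02, and 8 rows were above 0. Under azacitidine the median was -0.43, beside -0.52 over the other repeat rows, with all 34 rows below 0 and 0 called (edgeR; 0 of 34 passed 0.05 without adjustment, beside 14.8% of repeat rows, and DESeq2 gave 0 by either criterion, beside 15.1% without adjustment), where 0.391% of repeat rows were called. B3 was at -0.49 ± 0.30 (adjusted p = 0.301, edgeR) and B1_Mm at -0.48 ± 0.30 (adjusted p = 0.301, edgeR). Without WT azacitidine library 2, 29 of 34 were called lower, where 52.4% of all repeat rows were, and without library 1 the median was near 0, with 15 rows above 0 and 0 called. The 5 rows not called without library 2 were B2_Mm1a, B2_Mm1t, B2_Mm2, ID2 and MIRc.

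Averaged over both genotypes, azacitidine gave values above 0 for 34 rows with a median of 0.23, the other repeat rows having 0.22. With edgeR 0 rows were called (1 of 34 passed 0.05 without adjustment, beside 3.61% of repeat rows, and DESeq2 called 0, with 1 before adjustment, beside 4.16%), beside 0% of repeat rows. The row with the lowest p was again AmnSINE2, at 0.59 ± 0.29 (adjusted p = 0.730, edgeR). Without WT azacitidine library 1 the median was 0.01 (21 rows above 0 and 13 below).

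**Figure D3:**
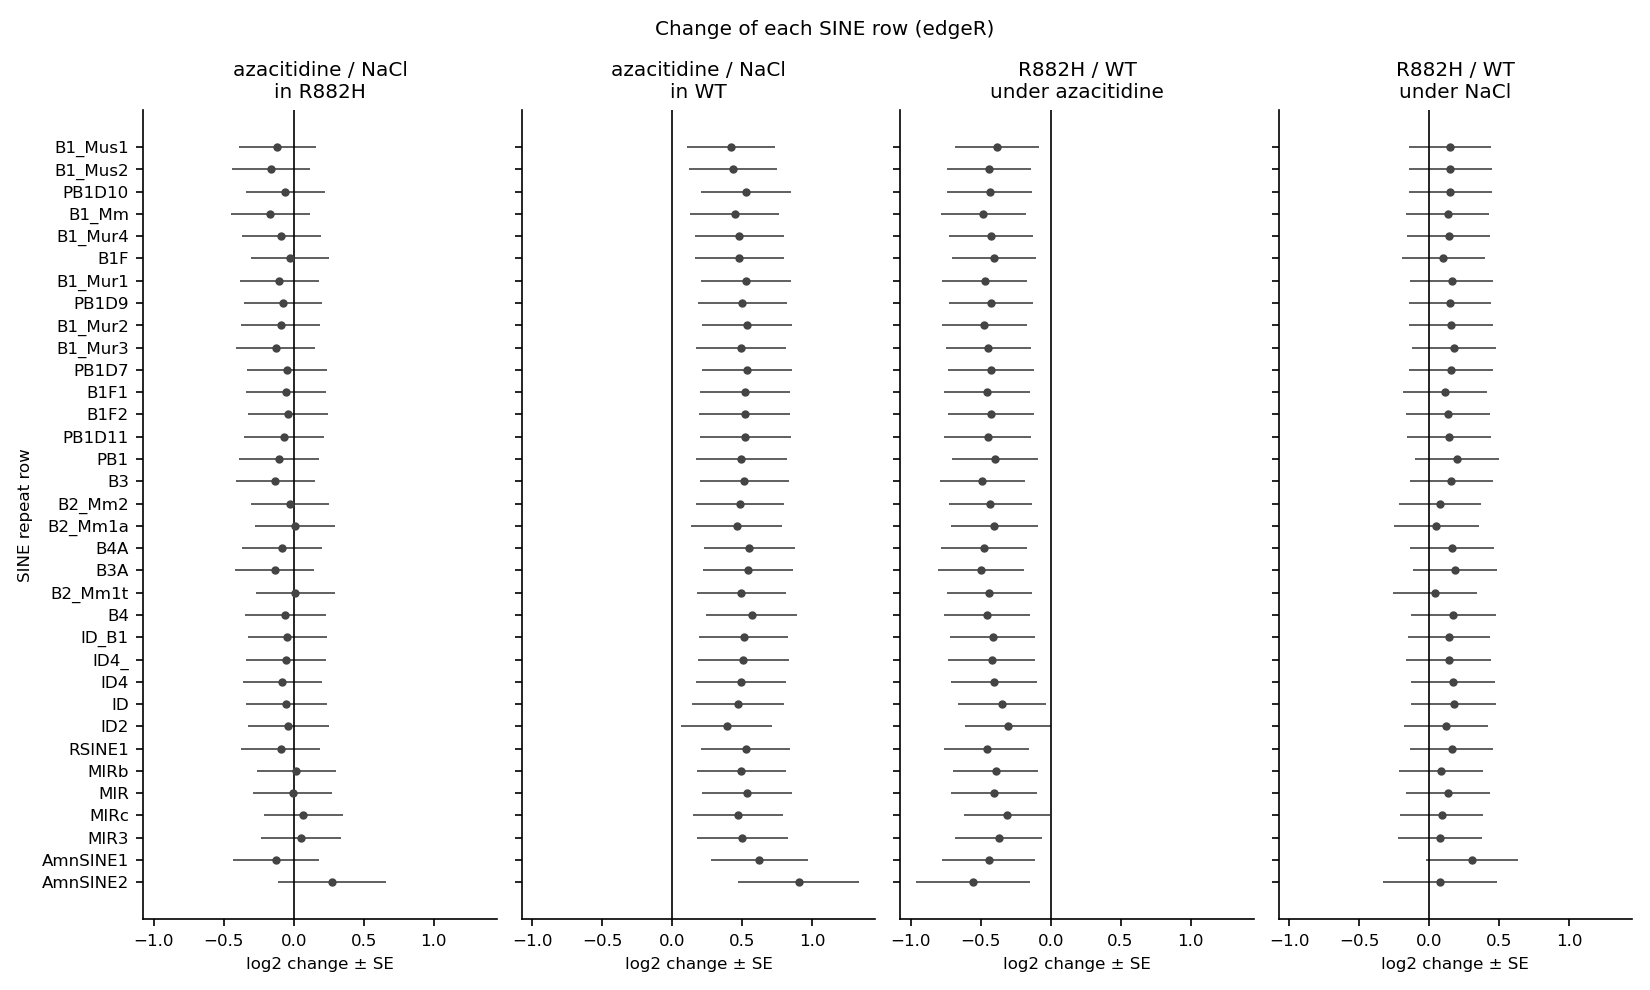
Log2 change of each SINE row in the 4 pair comparisons (edgeR, points with bars of 1 SE, rows grouped by class). Values in WT cells under azacitidine lie right of 0 and those of R882H against WT under azacitidine left of 0, with standard errors of 0.30 to 0.43, and no row was called.

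No SINE row had libraries that failed to overlap in any pair comparison of groups. The share of all 1201 repeat rows without overlap was 0.5% for azacitidine against NaCl in R882H, 3.41% for azacitidine against NaCl in WT, 0.833% for R882H against WT under NaCl and 4.75% for R882H against WT under azacitidine.

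SINE rows moved together from library to library. WT azacitidine library 1 held the highest level of 32 rows, and R882H NaCl library 1 held that of the other 2, B2_Mm1a and B2_Mm1t. R882H NaCl library 1 was the highest of its group in 34 of 34 rows, and WT NaCl library 3 was the lowest of its group in 33. Within WT azacitidine the median SINE row of library 1 stood at 2.01 times the mean of the other libraries of the group, and that of library 2 at 0.437 times. Other repeat rows did the same, at 2.07 and 0.411 times (739 and 822 rows), as did LINE-1 rows at 2.26 and 0.377 times. Azacitidine-treated R882H libraries lay closest together, with medians of 0.853 to 1.14 times the mean of the others.

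Several values stood high in WT azacitidine library 1 and R882H NaCl library 1. Ribosomal RNA repeat rows stood at 37936 CPM in WT azacitidine library 1, 10706 in library 2 and 7319 in library 3, against 4072 to 8246 in WT NaCl libraries. They stood at 2671 to 5391 CPM in R882H azacitidine libraries, against 18992 in R882H NaCl library 1 and 2504 to 7687 in the other R882H NaCl libraries. Ribosomal protein genes took 4.67% of the gene counts in WT azacitidine library 1 and 4.68% in R882H NaCl library 1, out of a range of 1.91% to 4.68%. Mitochondrial genes took 0.980% and 1.78% in those same libraries, beside a median of 0.373% over the 16. Neither share was high in those libraries alone. In WT azacitidine library 2, lowest of its group in summed SINE level, these shares were 3.79% and 0.518%, beside 2.93% and 0.459% in library 3. In R882H NaCl library 2, also lowest of its group, they were 3.95% and 0.679%. In WT NaCl library 2, highest of its group, they were 4.24% and 0.686%. The part of these values in the SINE levels was not tested.

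**Figure D4:**
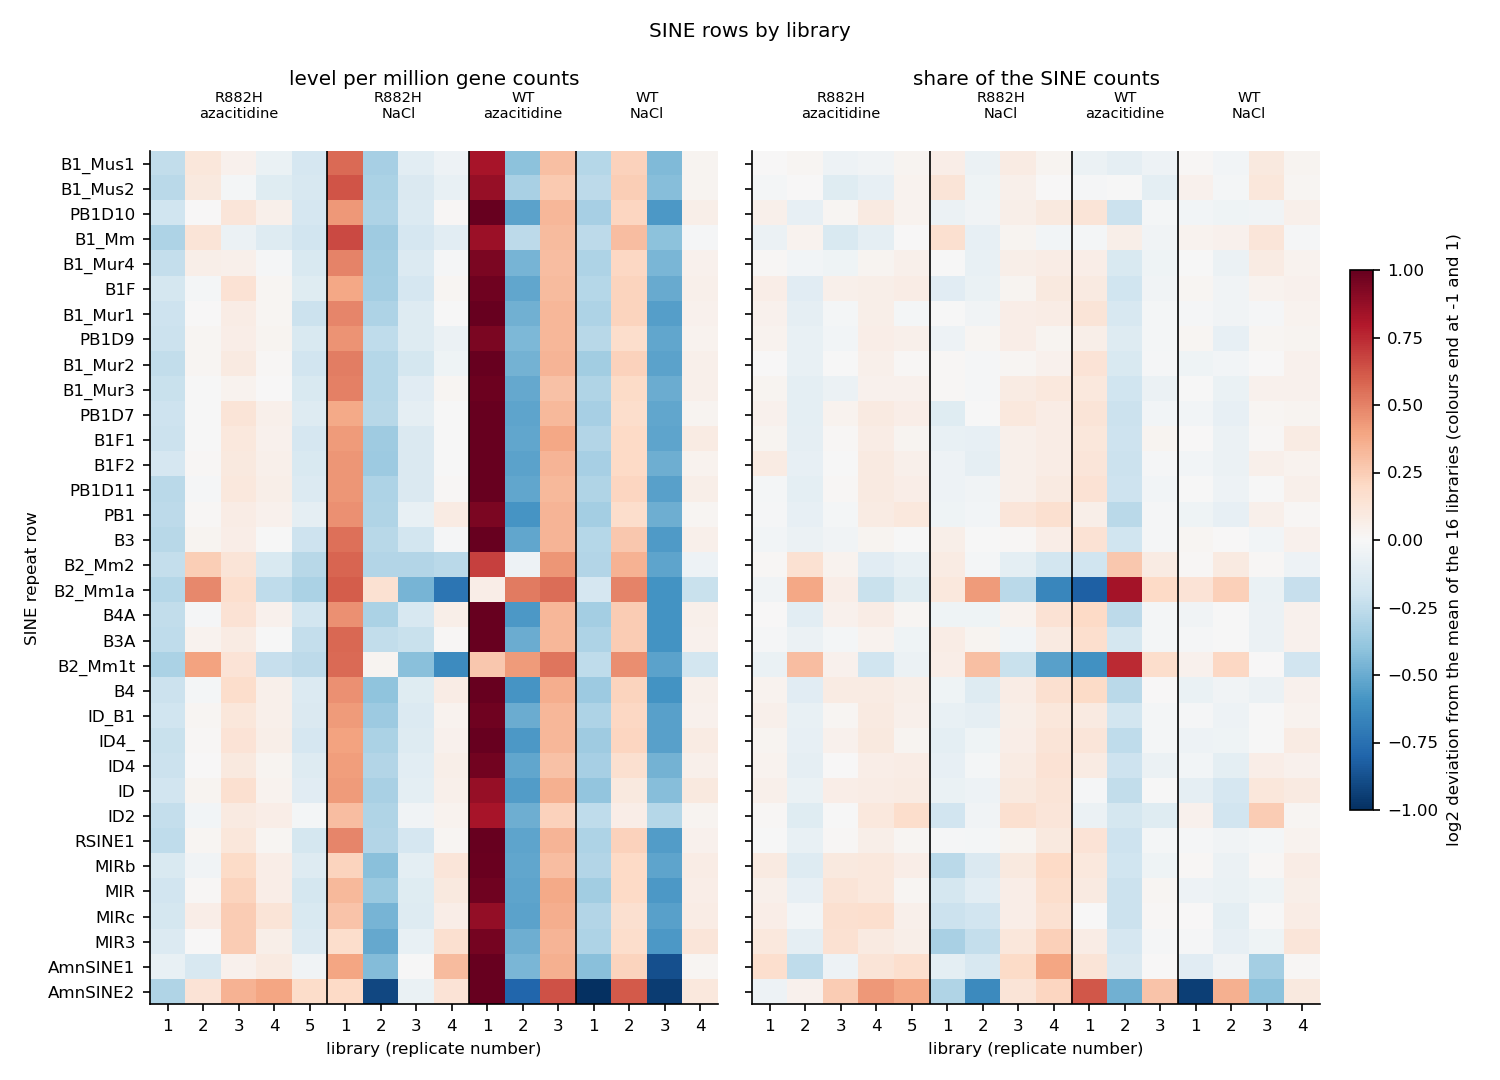
Each of the 34 SINE rows in each library as log2 deviation from its mean over the 16 libraries, by level CPM (left) and by share of the SINE counts (right). On the left, library 1 of R882H NaCl and library 1 of WT azacitidine are high in nearly all rows; on the right, most rows are pale and B2_Mm1a, B2_Mm1t and AmnSINE2 stand out.

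As shares of all SINE counts, most rows varied less than by level. The highest library had 1.14 to 1.35 times the share of the lowest for the 15 B1 rows, 1.23 to 1.36 times for the ID rows and 1.31 to 1.48 times for the MIR rows. Both AmnSINE rows varied more, at 1.66 times for AmnSINE1 and 2.94 times for AmnSINE2, the row with the fewest counts, and B2_Mm1a and B2_Mm1t stood at 3.13 and 2.55 times. B3 and its relative B3A kept a near constant ratio, 2.01 to 2.11 B3 counts per B3A count over the 16 libraries. With the SINE total as library size, edgeR called 0 of 34 rows in all 6 comparisons, and 0% of the repeat rows tested were called in each. The lowest adjusted p of a SINE row over all 19 fits scaled this way, with single libraries left out among them, was 0.570. By share, the only row whose groups did not overlap was B1_Mus1, whose share was 5.98% to 6.14% in WT azacitidine libraries against 6.24% to 6.80% in WT NaCl libraries, and 6.15% to 6.49% in R882H azacitidine libraries. That is 1 of 34 SINE rows in each of these comparisons, while over the same SINE total 4% of all repeat rows did not overlap for azacitidine against NaCl in WT and 4.33% for R882H against WT under azacitidine. In the comparisons with 0 SINE rows, 1.08% of repeat rows did not overlap for azacitidine against NaCl in R882H and 1.58% for R882H against WT under NaCl.

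Among the abundant rows, the widest spread of shares was in a pair of young B2 subfamilies, B2_Mm1a and B2_Mm1t. B2 RNA made by RNA polymerase III is known in mouse cells to rise on heat shock and to bind RNA polymerase II. Their joint share of the SINE counts was 10.3%, 13.6%, 11.1%, 9.19% and 9.95% in R882H azacitidine libraries, against 11.3%, 13.8%, 8.94% and 7.00% in R882H NaCl libraries. It was 6.44%, 18.5% and 12.1% in WT azacitidine libraries, against 11.4%, 12.4%, 10.4% and 9.17% in WT NaCl libraries. The groups overlapped, the extremes both fell in WT azacitidine, and library 2 had the highest share in all 4 groups. Library 4 had the lowest in the 3 groups that have one. T and NK cell markers (6 genes) summed to 347 to 542 CPM in R882H azacitidine libraries, 247 to 516 in R882H NaCl libraries, 398 to 785 in WT azacitidine libraries and 283 to 616 in WT NaCl libraries, with library 2 the highest in both azacitidine groups. Nkg7 alone gave nearly all of those sums, at 781 CPM in WT azacitidine library 2 and 536 in R882H azacitidine library 2. Cd3d, Cd3e, Cd3g and Cd2 were at 22.6 to 32.4 CPM in R882H NaCl library 1 and at most 3.48 elsewhere. Neutrophil markers (6 genes) reached 620 CPM in R882H azacitidine library 2 and 322 in WT azacitidine library 3, beside 142 or less in the other libraries. Their part in the share was not tested. The mean share was 10.8% ± 1.69 under azacitidine and 10.3% ± 2.93 under NaCl in R882H cells, and 12.3% ± 6.02 under azacitidine and 10.8% ± 1.39 under NaCl in WT cells (SD, n = 5, 4, 3 and 4). The widest 95% Wilson interval of these 16 shares spanned 0.185 percentage points, which covers counting error only and is far below the spread of libraries.

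B2_Mm1a itself had 1065, 1806, 1453, 1084 and 1038 CPM in R882H azacitidine libraries, against 1969, 1436, 940.2 and 781 in R882H NaCl libraries. It had 1356, 1854 and 1903 in WT azacitidine libraries, against 1155, 1831, 854 and 1109 in WT NaCl libraries. The library that was highest for B1, B3 and MIR rows, WT azacitidine library 1, was the lowest of its group for B2_Mm1a. The edgeR log2 change of B2_Mm1a was 0.01 ± 0.29 in R882H cells (adjusted p = 0.991) and 0.46 ± 0.33 in WT cells (adjusted p = 0.298). The ratio of B2_Mm1a to B3 counts was lowest in WT azacitidine library 1, at 0.326, and highest in WT azacitidine library 2, at 1.30, with a median of 0.644 over the 16 libraries. B2_Mm1t kept near to B2_Mm1a, at 0.677 to 0.848 counts per B2_Mm1a count. Against B2_Mm2, the other B2 row, B2_Mm1a had 0.495 to 1.12 counts for each B2_Mm2 count, lowest and highest in the same libraries as against B3. These subfamilies are close in sequence, and how the authors counted reads that fit several copies is not given in the sources used here, so the split among B2 rows is uncertain.

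**Figure D5:**
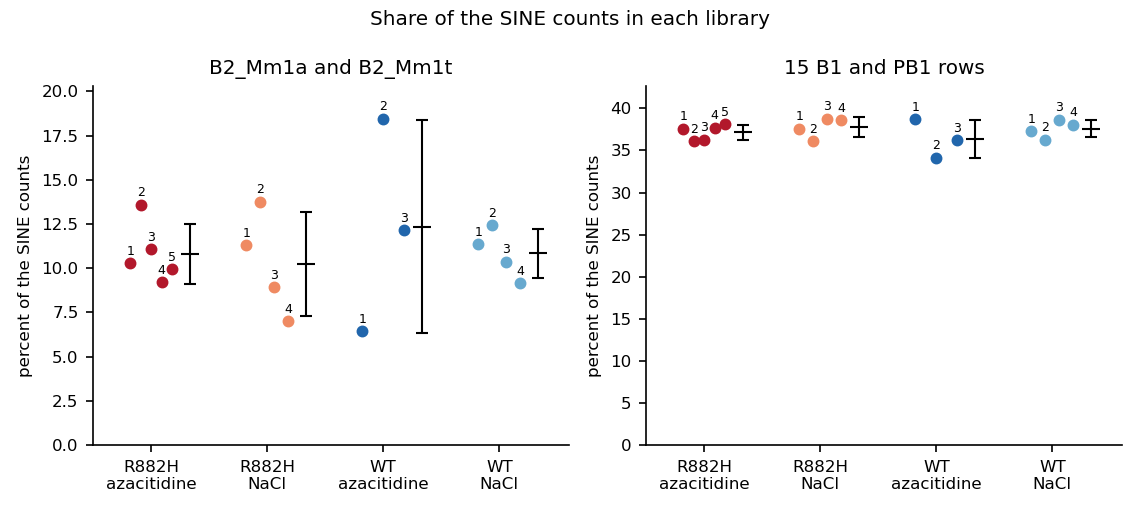
Share of the SINE counts taken by B2_Mm1a with B2_Mm1t (left) and by the 15 B1 and PB1 rows (right) in each library, in percent with axes from 0. Points are libraries with their replicate number and bars the mean and SD; the B2_Mm1 share runs from 6.44% to 18.5%, both in WT azacitidine, while the B1 share stays between 34.1% and 38.8%.

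ID, RSINE and AmnSINE rows repeated the pattern of B1. ID_B1, a composite of an ID and a B1 element, made up most of the ID class, with 1180.4, 1372, 1467, 1401 and 1222 CPM in R882H azacitidine libraries and 1814, 1053, 1233 and 1386 in R882H NaCl libraries. In WT cells it had 2653, 958 and 1703 under azacitidine, against 1091, 1561, 930.1 and 1391 under NaCl. RSINE1, a rodent family related to B4, averaged 1329.9 ± 138 under azacitidine and 1418 ± 359 under NaCl in R882H cells, and 1826 ± 919 under azacitidine and 1269 ± 303 under NaCl in WT cells. The 5 ID rows summed to 1928 ± 178 CPM under azacitidine and 1998 ± 459 under NaCl in R882H cells, and to 2561 ± 1235 under azacitidine and 1807 ± 404 under NaCl in WT cells. AmnSINE rows summed to 12.6 ± 0.986 CPM under azacitidine and 13.3 ± 3.32 under NaCl in R882H cells, and to 17.4 ± 8.90 under azacitidine and 11.0 ± 3.81 under NaCl in WT cells. The groups overlapped in each.

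Rows of the small RNAs related to SINEs, whose names fall outside the rule, ranged from the level of AmnSINE to that of the lowest ID rows. The repeat row 7SLRNA had 4.13 to 9.32 CPM over the 16 libraries and the row BC1_Mm had 63.9 to 154, with WT azacitidine library 1 highest in both. The row 4.5SRNA had 5.69 to 39.7 CPM, with WT azacitidine library 2 highest. The gene Bc1, whose sequence is printed above, was at 0 to 0.150 CPM.

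Genes that make, bind or repress SINE RNA gave no calls. Of 4 lists, 13 of 13 subunits of RNA polymerase III and 11 of 11 of its initiation factors with their repressor Maf1 were tested. So were 15 of 15 genes for proteins that bind or process SINE RNA and 16 of 16 genes for repressors of SINE copies. The test was edgeR's quasi-likelihood test on all 18345 genes after TMM scaling, which also holds for the CPM of genes below. In the 6 comparisons 0 of these 55 genes were called, where the share of all genes called was 0.00545% for azacitidine against NaCl in R882H and for R882H against WT under NaCl, 0.0218% for azacitidine averaged over both genotypes, and 0% for the remaining 3. The list medians lay between -0.12 and 0.21 in log2 change over lists and comparisons, beside -0.03 to 0.03 for all genes. No other tool was run on genes, and 0 were called in any of the 19 alternative fits in each comparison. At an unadjusted p under 0.05, 4 of 16 repressors had lower values in R882H than in WT cells under azacitidine and 0 higher values, with adjusted p = 0.542 for each (edgeR). Of the 15 genes for proteins that bind or process SINE RNA, 1 passed in the same comparison, with a lower value. Of the 13 RNA polymerase III subunits and the 11 initiation factors with Maf1, 0 passed. Over all genes, 6.31% passed with lower values and 9.15% in either direction. The repressor list was thus 1 of 4, set apart after its values were seen. Among the 4 repressors were Chd4, the helicase of the NuRD complex, and Cbx5 and Cbx3, which bind methylated histone H3 lysine 9. In the azacitidine response in R882H minus that in WT, Ago2, a protein that binds small RNAs, and Chd4 passed 0.05 without adjustment, at -1.14 ± 0.48 and -0.74 ± 0.32 (adjusted p = 0.770 for both, edgeR), where 5.88% of all genes did. In the other 4 comparisons 0 of the 55 genes passed, beside 6.62% of all genes for azacitidine against NaCl in R882H, 5.91% for azacitidine against NaCl in WT, 5.52% for R882H against WT under NaCl and 6.82% for azacitidine averaged over both genotypes. Chd4 averaged 124 ± 16.3 CPM in R882H cells and 182 ± 74.2 CPM in WT cells under azacitidine (SD, n = 5 and 3), a log2 change of -0.55 ± 0.23 (SE).

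Among the proteins that bind SINE RNA, Srp9, which with Srp14 binds the 7SL-derived fold, averaged 145 ± 26.6 CPM under azacitidine and 172 ± 65.4 CPM under NaCl in R882H cells, and 185 ± 45.6 CPM under azacitidine and 164 ± 36.4 CPM under NaCl in WT cells. Dhx9, a helicase that unwinds paired SINE RNA, had a log2 change of -0.87 ± 0.39 in R882H against WT cells under azacitidine (adjusted p = 0.542, edgeR). Of the RNA polymerase III genes, Polr1d, a subunit shared with RNA polymerase I, had the lowest p in that comparison, at -0.46 ± 0.26 (adjusted p = 0.546, edgeR). Gtf3c5, a subunit of the factor TFIIIC that binds the B box, was at 0.37 ± 0.20 (adjusted p = 0.542, edgeR). Dnmt1, the maintenance DNA methyltransferase, averaged 364 ± 115 CPM under azacitidine and 319 ± 136 CPM under NaCl in R882H cells, and 256 ± 18.6 CPM under azacitidine and 321 ± 91.7 CPM under NaCl in WT cells.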

How the data were processed

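RNA-seq of sorted LSK cells was read from the deposited count tables: raw counts per gene or repeat name, whole numbers, not normalized by the authors. The deposited Length column, another unit, gives the bases of annotated copies and was used only for levels per Mb. Per the submitters' processing notes the tools were HISAT2 2.0.5, featureCounts 1.6.2 and edgeR 3.26.6 on GRCm38/mm10. Strand setting and the handling of reads that fit several copies are not given in the sources used here, and SINE subfamilies share sequence. Per the labels' protocols, cDNA was amplified with the SMARTer Ultra Low kit from RNA with a RIN of at least 8.

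Levels are CPM over the gene count total. The authors' FPKM tables were not used. Repeat rows (1024 after edgeR's filterByExpr) and genes (18345) were tested in R 4.3.3 with edgeR 4.0.16 quasi-likelihood fits over all 16 libraries and 4 groups, library size being the gene count total (for genes with TMM factors), with Benjamini-Hochberg adjustment over all rows tested. Alternatives for repeat rows were DESeq2 1.42.0, TMM and other library totals, and for genes totals without TMM, besides, for both, no filter, a replicate block and leaving out libraries. The fit was tested on simulated data and recovered 38% to 52% of 2-fold and 95% to 100% of 4-fold changes. It gave 4 to 8 false calls among 809 to 811 unchanged rows. Simulated rows varied independently of each other, while the repeat rows moved together by library. The recovery therefore does not describe a shift shared by the SINE rows. No libraries within a group matched within sampling noise (chi-square per degree of freedom at least 11.7 over 25 pairs). Tables were handled in Python 3.11.15 with pandas 2.3.3. SINE rows named are the most abundant of each class, those with the lowest p or the most extreme change in a comparison, and a list of common subfamilies. Genes named are those called and up to 2 per list with the lowest p. Srp9, Dnmt1, Dnmt3a, Cbx3 and Cbx5 fall outside this rule and were named after their values were seen. The members and lists were chosen with earlier results of these data known. Intervals cover counting error only. Some items within the rule are not reported here.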

Additional observations from a re-analysis of the deposited data

Results flagged for a closer look

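In the R882H NaCl group of 4 libraries, library 1 stood apart from the other 3 in B2_Mm2, at 2554 CPM (gap over range 0.979, critical value 0.829 for 4 samples). It also stood apart in the summed B2 to B4 rows, at 12605 CPM (0.920). In all, 117 values were examined in this way, and chance marks about 1 in 20 groups. Library 1 also held 18992 CPM of ribosomal RNA rows and 1.78% mitochondrial counts, and their part in these values was not tested.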

How the results depend on the processing

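The log2 ratios of class sums turned on single libraries. Leaving out each library in turn, azacitidine against NaCl in WT cells ranged from 0.089 to 0.76 for B1, 0.28 to 0.71 for B2 to B4 and 0.097 to 0.80 for MIR. The azacitidine response in R882H minus that in WT ranged from -0.86 to -0.19 for B1, -0.78 to -0.34 for B2 to B4 and -0.78 to -0.073 for MIR. R882H against WT under azacitidine ranged from -0.72 to -0.042 for B1, -0.66 to -0.22 for B2 to B4 and -0.68 to 0.027 for MIR. In single rows this last comparison ranged from -0.70 to 0.039 for MIRb and -0.96 to 0.082 for AmnSINE2. Azacitidine against NaCl in R882H ranged from -0.20 to 0.10 for B1, -0.15 to 0.17 for B2 to B4 and -0.09 to 0.13 for MIR, and R882H against WT under NaCl from -0.05 to 0.27, -0.11 to 0.30 and -0.02 to 0.22 for the same classes. SINE rows called ranged from 0 to 31 for azacitidine against NaCl in WT and from 0 to 29 for R882H against WT under azacitidine. Without both R882H NaCl library 1 and WT azacitidine library 1, azacitidine against NaCl in WT was 0.089 for B1 and 0.097 for MIR, and R882H against WT under azacitidine was -0.042 for B1, 0.027 for MIR, 0.039 for MIRb and 0.082 for AmnSINE2. The difference between azacitidine responses was then 0.0094 for B1, -0.11 for B2 to B4 and 0.034 for MIR. The cause was not tested. Of 711 values compared, 684 were scored as unchanged. For class ratios this meant a move of less than 1 pooled SD (251 of 264), so a ratio near 0 could turn its sign. Counts of called SINE rows stayed at 0 in 166 of 168 fits and those of pathway genes in 114 of 114. Single rows were scored by sign and call. Scaling to the SINE total was chosen after seeing the data.

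With the replicate block, 0 SINE rows and 0 pathway genes were called in all 6 comparisons, and azacitidine against NaCl in R882H had 17 SINE rows above 0 and 17 below (6 and 28 without the block). Same-numbered libraries had correlations of -0.206 to 0.449 over genes, with 11 of 21 pairs over 0.1. Pairs with different numbers had -0.546 to 0.459, with 24 of 74 over 0.1. Over the SINE rows same-numbered libraries had a median of 0.467 (-0.609 to 0.949, 14 of 21 over 0.1). Pairs with different numbers had a median of -0.157 there (-0.957 to 0.927, 29 of 74 over 0.1), so single high values also occurred among them. Number 2 pairs lay at 0.596 to 0.899 and number 4 pairs at 0.899 to 0.949, number 1 and 3 pairs on both sides of 0. Since not every pair was over 0.1 and the labels give no meaning to the numbers, they were not taken as pairing, and this remains a hint from the data. Rows of low count such as AmnSINE2 (30 to 185 counts) are limited by depth.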
